A study of Mus musculus with 4 samples.

Results

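The alpha and beta tubulin genes Tuba1a, Tuba1b, Tuba1c, Tuba4a, Tubb2a, Tubb2b, Tubb3, Tubb4b, Tubb5 and Tubb6 were followed in B16F10 cells, a mouse melanoma line of the C57BL/6 strain. These 10 genes, 4 alpha and 6 beta, were picked from a matrix of 24421 gene symbols by a rule that names symbols only. The genes named were chosen with earlier results of these data known. Cells of 2 libraries (shControl 1 and 2) had been transduced with an empty lentiviral vector and cells of 2 libraries (shLmna 1 and 2) with the same kind of vector carrying a short hairpin RNA against Lmna, which encodes the A-type lamins A and C of the nuclear lamina, and all cells were selected with puromycin. The control carried no hairpin, so an effect of carrying any hairpin cannot be told apart from that of lamin A/C knockdown. Nor can effects of this hairpin on other transcripts, or differences between the transduced lines that arose for other reasons. It was not stated whether separate transductions or cultures lay behind a group's libraries, so the p-values measure spread between libraries that may be technical. Transcripts were counted at their 3′ ends by bulk MARS-seq.

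Library totals ranged from 2494880 to 3808843 counts. Counts of Lmna were 2826 and 2684 in shControl 1 and 2 and 331 and 480 in shLmna 1 and 2. The shControl level was 797 ± 111 CPM (counts scaled to a library size of 1000000, SD, n = 2) and the shLmna level 130.8 ± 0.0955 CPM, in the direction of the labels. None of the 7 melanocyte markers was at 0 in all libraries, and their summed level was 20117 to 20891 CPM in shControl and 21156 to 24602 CPM in shLmna. All 5 neuronal markers (Elavl3, Snap25, Syt1, Rbfox3 and Dcx) were at 0 in all 4 libraries. Of 5 fibroblast markers only Dcn was at 0, and their summed level was 7.12 and 7.50 CPM in shControl and 2.37 and 4.90 CPM in shLmna. The part of such traces in the tubulin values was not tested. Leukocyte markers were at 0 for 4 of 5, endothelial markers for 2 of 4 and keratinocyte markers for 3 of 4, and the summed level of each of these lists was at most 1.55 CPM in any library.

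Tubulin is the building block of microtubules, the hollow filaments that carry the mitotic spindle, serve as tracks for motor proteins and pass force between the cell edge and the nucleus. An alpha and a beta tubulin chain fold on a cytosolic chaperonin, pair as a heterodimer and then join end to end into protofilaments. Mammals have several genes for each chain. Their products, called isotypes, are nearly alike in the folded body and differ mostly in a short acidic carboxy-terminal tail on the microtubule surface, where enzymes add or remove glutamates and the last tyrosine. Cells also sense free tubulin: a ribosome-bound factor, Ttc5, recognises the first residues of a growing tubulin chain and directs decay of its mRNA.

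The 5′ ends of the coding sequences are shown first, since the first residues are what the decay pathway reads. The start codon is in lower case and codons 2 to 4 are in capitals. Sequences were read from the GENCODE M21 annotation of GRCm38, the build that UCSC names mm10.
Tuba1a: atgCGTGAGTGC
Tuba1b: atgCGTGAGTGC
Tuba1c: atgCGTGAGTGC
Tuba4a: atgCGCGAGTGC
Tubb2a: atgCGCGAGATC
Tubb2b: atgCGAGAGATC
Tubb3: atgAGGGAGATC
Tubb4b: atgAGGGAGATC
Tubb5: atgAGGGAAATC
Codons 2 to 4 are those of arginine, glutamate and cysteine in the 4 alpha genes and of arginine, glutamate and isoleucine in the 5 beta genes shown. Tubb6 was left out of these sequences.

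The last 20 codons, stop codon included, of 5 of the genes are shown next because the tail is where isotypes differ and where the modifying enzymes described further on act. Glutamate codons (GAA or GAG) are in capitals.
Tuba1c: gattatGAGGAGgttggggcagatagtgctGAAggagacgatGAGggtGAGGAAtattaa
Tuba4a: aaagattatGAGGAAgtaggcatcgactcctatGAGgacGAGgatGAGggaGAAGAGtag
Tubb3: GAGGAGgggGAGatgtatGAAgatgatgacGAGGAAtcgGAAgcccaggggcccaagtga
Tubb4b: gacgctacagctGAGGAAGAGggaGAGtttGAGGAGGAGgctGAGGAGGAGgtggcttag
Tubb5: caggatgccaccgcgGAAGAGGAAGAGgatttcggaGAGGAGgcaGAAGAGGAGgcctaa
The last sense codon is a tyrosine codon (tat) in Tuba1c and a glutamate codon (gag) in Tuba4a, so the protein of Tuba4a is made without the terminal tyrosine that the tyrosine ligase and the carboxypeptidases add and remove. Glutamate codons in this stretch numbered 6 in Tuba1c, 7 in Tuba4a, 7 in Tubb3, 10 in Tubb4b and 9 in Tubb5. Tubb3 ended in a lysine codon (aag), whereas Tubb4b and Tubb5 ended in an alanine codon (gct and gcc).

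In shLmna, transcript levels of Tuba1b and Tuba4a rose and that of Tubb3 fell. Tuba1b rose 1.45-fold, Tuba4a rose 1.65-fold and Tubb3 fell by 30.7%. Of the 10 genes 9 had enough counts to be tested, and 2 of these were higher and 1 was lower at an edgeR adjusted p under 0.05, while 6 did not pass. Over all 9150 tested genes the same rule called 5.48% higher and 9.74% lower. At an unadjusted p under 0.05 there were 5 tubulin genes, 4 of them higher and 1 lower, where 13.6% of all tested genes were higher and 16.5% lower. None passed the study's further limits of a log2 fold change over 1 in size and a mean normalized count over 5, either with edgeR or with DESeq2, and these 3 limits called 1.76% of all tested genes higher and 5.88% lower. The 9 tested genes had a median log2 fold change of 0.18, against -0.00107 over all tested genes. The log2 fold change was above 0 for 7 of them and for 49.9% of all tested genes.

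Groups did not overlap, with both shLmna libraries higher, for 5 of the 9 tested tubulin genes (Tuba1b, Tuba1c, Tuba4a, Tubb2a and Tubb5), and for 1, Tubb3, both were lower. Over all tested genes 29.5% had groups that did not overlap with shLmna higher and 30.6% with shLmna lower, so separation by itself was common in this table.

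**Figure D1:**
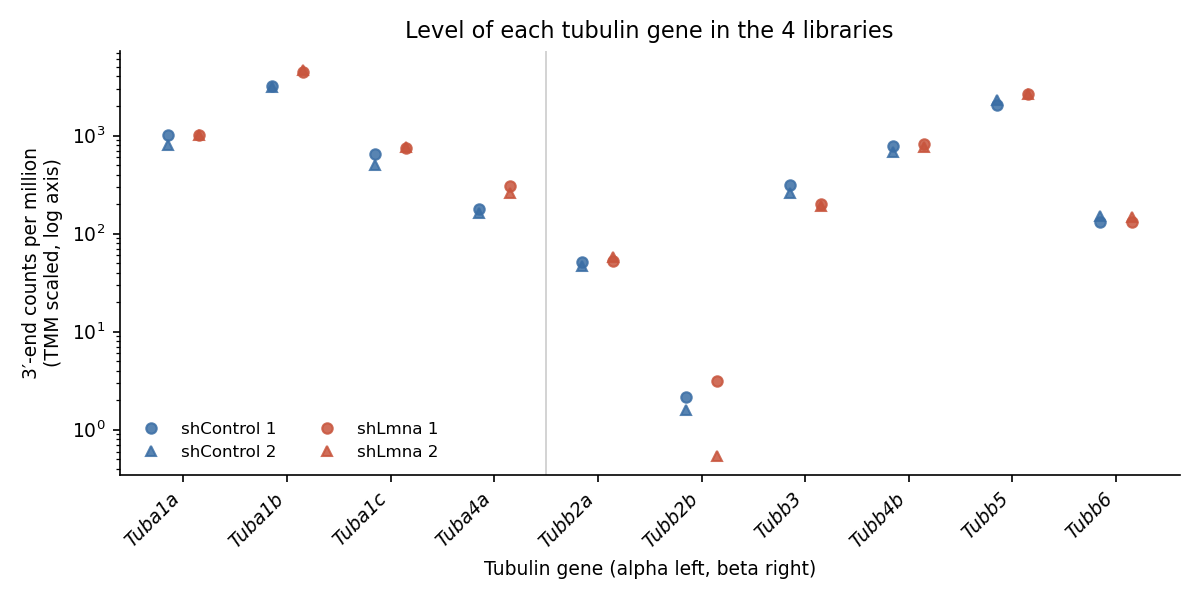
Level of each tubulin gene in CPM on a log axis, with circles for library 1 and triangles for library 2 of each group, shControl in blue and shLmna in red. Tuba1b and Tubb5 lay highest in all 4 libraries, Tubb2b lay at 3.16 CPM or less, and Tuba4a and Tubb3 traded places between the groups.

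Reads were counted over the last 1000 bases of each gene and the 100 bases downstream, a window of one length, so CPM levels can be set side by side between these genes. In shControl the order of mean levels from the top was Tuba1b (3145 CPM), Tubb5 (2182 CPM), Tuba1a (910 CPM), Tubb4b (734 CPM), Tuba1c (572 CPM), Tubb3 (286 CPM), Tuba4a (171 CPM), Tubb6 (141 CPM), Tubb2a (49.0 CPM) and Tubb2b (1.89 CPM). In shLmna the order was the same except that Tuba4a (283 CPM) stood above Tubb3 (198 CPM). The ranges of neighbouring genes in these orders overlapped in neither group. The closest neighbours were Tubb4b and Tuba1c in shLmna, at 791 ± 38.2 and 757 ± 5.21 CPM (SD, n = 2), a ratio of 1.05, and they were not tested against each other. How far these levels hold for the Tuba1 genes, Tubb2a and Tubb4b depends on how reads of near-identical copies were assigned, as described further on.

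Tuba1b encodes the major alpha tubulin of most proliferating cells. It had 3192 and 3099 CPM in shControl 1 and 2 and 4448 and 4651 CPM in shLmna 1 and 2, behind which lay 10304 to 17071 counts a library. Every shLmna library stood above every shControl library, and the gap was far wider than the spread within a group (3145 ± 65.6 against 4550 ± 144 CPM, SD, n = 2). The log2 fold change was 0.53 (SE 0.09, 95% interval 0.33 to 0.73, edgeR adjusted p = 0.00387, DESeq2 adjusted p = 2.19e-06). Without shLmna 2 it was 0.51 with an edgeR adjusted p of 0.0700, so the call was lost while the size held.

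Tuba4a encodes the alpha isotype without an encoded terminal tyrosine. It had 180 and 163 CPM in shControl 1 and 2 and 308 and 259 CPM in shLmna 1 and 2. Both shLmna libraries were higher, with shLmna 1 the highest, and the means were 171 ± 12.3 and 283 ± 34.4 CPM (SD, n = 2). This gave a log2 fold change of 0.73 (SE 0.13, 95% interval 0.43 to 1.03, edgeR adjusted p = 0.00637, DESeq2 adjusted p = 0.000373). Without shLmna 1 it was 0.60 with an edgeR adjusted p of 0.0768, and without any other library the gene still passed.

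Tuba1c, which completes the Tuba1 cluster, had 648 and 496 CPM in shControl 1 and 2 and 753 and 760 CPM in shLmna 1 and 2. The shLmna libraries were close to each other and above both shControl libraries, which lay wide apart. The log2 fold change was 0.40 (SE 0.14, 95% interval 0.09 to 0.72) and did not pass the test (edgeR adjusted p = 0.0878). Without shControl 1 it was 0.61 with an edgeR adjusted p of 0.000805, and without shControl 2 it was 0.22 with an edgeR adjusted p of 0.325. Without shLmna 1 or shLmna 2 it was 0.42 and 0.41 (edgeR adjusted p = 0.297 and 0.312).

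Tuba1a, the alpha isotype best known from developing neurons, had 1018 and 803 CPM in shControl 1 and 2 and 1013 and 1015 CPM in shLmna 1 and 2. The groups overlapped, since shControl 1 was as high as both shLmna libraries. Its log2 fold change was 0.16 (SE 0.13, 95% interval -0.14 to 0.45, edgeR adjusted p = 0.470), and without shControl 2 it was -0.01.

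**Figure D2:**
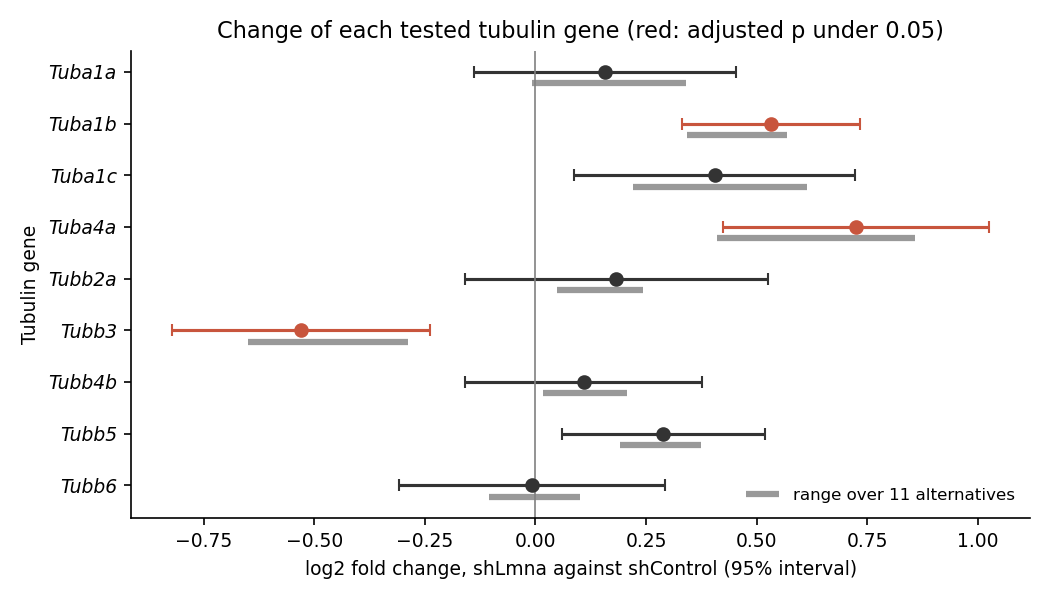
Log2 fold change of the 9 tested tubulin genes, shLmna against shControl, with 95% intervals from the edgeR fit, and a grey bar for the range over 11 other settings. Tuba1b (0.53), Tuba4a (0.73) and Tubb3 (-0.53), in red, had an adjusted p under 0.05. Their grey bars stayed on one side of 0, as did those of Tuba1c, Tubb2a, Tubb4b and Tubb5, which did not pass.

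Tubb3 was the beta gene that passed the test, and it fell. It encodes class III beta tubulin, an isotype typical of neurons and also made by melanoma and other tumour cells. It had 309 and 262 CPM in shControl 1 and 2 and 203 and 193 CPM in shLmna 1 and 2. The shLmna pair lay below the shControl pair, with means of 286 ± 33.7 and 198 ± 6.60 CPM (SD, n = 2). The log2 fold change was -0.53 (SE 0.13, 95% interval -0.82 to -0.24, edgeR adjusted p = 0.0234, DESeq2 adjusted p = 0.0174). Without shLmna 1 the edgeR adjusted p was 0.122 and without shLmna 2 it was 0.198, with log2 fold changes of -0.56 and -0.48. The neuronal markers named above were at 0 in every library, so Tubb3 was counted in these cells without them.

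Tubb5, the major beta tubulin of dividing cells, had 2052 and 2312 CPM in shControl 1 and 2 and 2680 and 2652 CPM in shLmna 1 and 2. The shLmna libraries were both higher, by more than the gap between the shControl libraries. Its log2 fold change was 0.29 (SE 0.10, 95% interval 0.06 to 0.52) and did not pass the test (edgeR adjusted p = 0.0907). Without shControl 2 it was 0.37 with an edgeR adjusted p of 0.0419, and without shControl 1 it was 0.21 with an edgeR adjusted p of 0.256. Without shLmna 1 or shLmna 2 it was 0.29 and 0.31 (edgeR adjusted p = 0.359 and 0.270).

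Tubb4b, a widely expressed beta isotype that cilia also use, had 780 and 687 CPM in shControl and 818 and 764 CPM in shLmna. The groups overlapped, and the log2 fold change was 0.11 (95% interval -0.16 to 0.38, edgeR adjusted p = 0.586). Tubb6, class V beta tubulin, had 131 and 152 CPM in shControl and 131 and 149 CPM in shLmna. Its values in the 2 groups covered nearly the same range, and the log2 fold change was -0.01 (95% interval -0.31 to 0.29, edgeR adjusted p = 0.979). The interval of Tubb6 leaves room for a change in either direction, so the data do not show that its level was equal.

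Tubb2a and Tubb2b, neighbouring genes for class II beta tubulin, were the lowest. Tubb2a had 50.8 and 47.1 CPM in shControl and 53.0 and 57.8 CPM in shLmna. The shLmna values were higher by a small margin, and the log2 fold change was 0.18 (95% interval -0.16 to 0.53, edgeR adjusted p = 0.466). Counts of Tubb2b were 7 and 6 in shControl against 8 and 2 in shLmna, under the filter for the test. Class II beta tubulin from Tubb2b was thus present as a trace of transcript, and no difference was detectable at this depth.

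When the genes of each chain were added up, both pools took a larger share of the library in shLmna. The 4 alpha genes took 0.499% and 0.447% of all counts in shControl 1 and 2 and 0.661% and 0.671% in shLmna 1 and 2. The 6 beta genes took 0.329% and 0.339% in shControl and 0.394% and 0.383% in shLmna. Both shLmna libraries lay above both shControl libraries for each chain, and the ratio of mean CPM was 1.38 for alpha and 1.14 for beta. All 10 genes together took 0.828% and 0.787% in shControl and 1.06% and 1.05% in shLmna. These are shares of a library from bulk RNA, in which a change in the number of cells of a kind and a change in RNA per cell cannot be told apart. With 2 libraries a group an exact two-sided permutation test cannot give a p below 0.33, so the pools, shares and ratios are described without a test.

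In the matrix counts the share of Tuba1b within the alpha pool was higher and that of Tuba1a lower in both shLmna libraries. Tuba1b made up 63.4% (Wilson 95% interval 62.6% to 64.1%) and 68.0% (67.3% to 68.7%) of the alpha counts in shControl 1 and 2, and 68.2% (67.5% to 68.9%) and 69.6% (69.0% to 70.1%) in shLmna 1 and 2. These intervals cover counting error only, and those of shControl 2 and shLmna 1 overlapped. The means differed by 3.22 percentage points for Tuba1b. With whole counts recovered from the deposited signal values, described under the processing, they differed by 2.22 points. In those counts the Tuba1b share of shLmna 1 was not above that of shControl 2, so the groups overlapped. Tuba1a made up 20.2% and 17.6% in shControl and 15.5% and 15.2% in shLmna, a difference of -3.54 percentage points between the means. Tuba4a held 3.57% and 3.56% in shControl and 4.72% and 3.88% in shLmna. The share of Tuba1c overlapped between groups, at 10.9% to 12.9% in shControl and 11.4% to 11.5% in shLmna.

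Within the beta pool the share of Tubb3 was lower and that of Tubb5 higher in both shLmna libraries. Tubb3 made up 9.30% (Wilson 95% interval 8.77% to 9.87%) and 7.57% (7.12% to 8.04%) of the beta counts in shControl 1 and 2, and 5.21% (4.79% to 5.67%) and 5.06% (4.71% to 5.44%) in shLmna 1 and 2. Its counting intervals did not overlap between any shControl and any shLmna library. Tubb5 made up 61.7% and 66.8% in shControl and 68.9% and 69.5% in shLmna, higher by 4.95 percentage points on average. The shares of Tubb2a, Tubb2b and Tubb4b overlapped between the groups. That of Tubb6 was 3.94% and 4.38% in shControl and 3.38% and 3.91% in shLmna. Its counting intervals in shControl 1 (3.59% to 4.32%) and shLmna 2 (3.60% to 4.25%) overlapped, and with the recovered counts the groups overlapped.

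**Figure D3:**
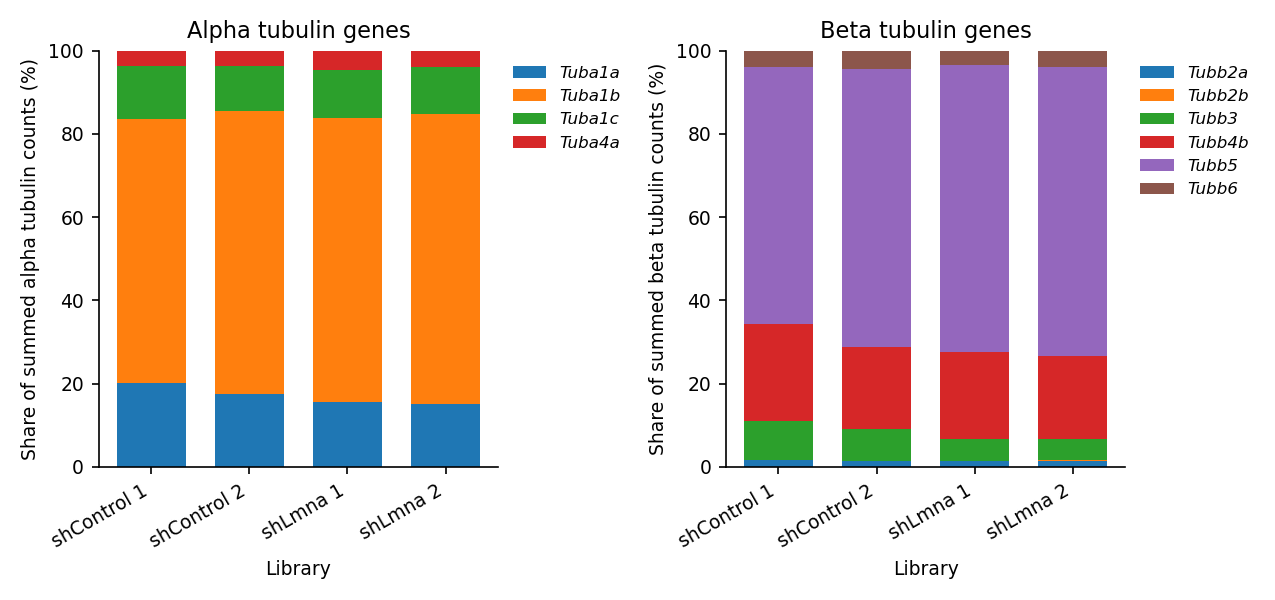
Stacked shares of each gene in the summed alpha tubulin counts (left) and the summed beta tubulin counts (right) of the 4 libraries, in percent. Tuba1b (63.4% to 69.6%) and Tubb5 (61.7% to 69.5%) made up most of their pools in each library, and the Tubb3 band was 9.30% and 7.57% in shControl against 5.21% and 5.06% in shLmna.

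Ratios of 2 genes within a library do not depend on how libraries were scaled. The ratio of Tubb5 to Tubb3 counts was 6.63 and 8.83 in shControl 1 and 2 and 13.2 and 13.7 in shLmna 1 and 2. That of Tuba4a to Tubb3 was 0.582 and 0.621 in shControl and 1.52 and 1.34 in shLmna, so Tubb3 outnumbered Tuba4a in both shControl libraries and Tuba4a outnumbered Tubb3 in both shLmna libraries. The ratio of Tuba1b to Tuba1a was 3.14 and 3.86 in shControl and 4.39 and 4.58 in shLmna. The ratios of Tuba1b to Tuba1c, Tuba1b to Tuba4a and Tubb5 to Tubb4b overlapped between the groups.

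How well reads can tell these genes apart differs between them, because several are near-identical copies. Tuba1a and Tuba1b share 98.3% of coding bases and 99.6% of residues by alignment, and Tubb2a and Tubb2b share 96.5% and 99.6%. Tuba4a shares 84.7% to 85.2% of coding bases with the Tuba1 genes, and Tubb3 shares 81.2% with Tubb5 (91.1% of residues). In the last 1000 transcript bases, 80.2% of all 31-base stretches of Tuba1b also occurred in transcripts of other genes, and the value was 83.1% for Tuba1c and 73.7% for Tuba1a. Pseudogene and predicted transcripts were among these matches. For stretches of 61 bases it was 76.1%, 78.0% and 61.5%. No stretch of either length in Tuba4a occurred in transcripts of another annotated gene, and in Tubb3 5.88% of 31-base stretches and 0% of 61-base stretches did. Stretches were searched in the sense direction only, and an opposite-strand overlap of the Tuba4a window is given further on. In the sense direction the Tuba4a and Tubb3 windows thus hold little or no shared sequence. The split of reads among Tuba1a, Tuba1b and Tuba1c is uncertain.

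The sum of Tuba1a, Tuba1b and Tuba1c does not depend on how reads were divided among these 3 genes. How reads that match several copies were handled is not given in the sources used here, and any that were discarded or given to pseudogenes are missing from the sum. It was 4857 and 4397 CPM in shControl 1 and 2 and 6214 and 6427 CPM in shLmna 1 and 2, a ratio of means of 1.37, with both shLmna libraries higher. Among the beta genes, 72.0% of 31-base stretches of Tubb2a were shared, mostly with Tubb2b, and 65.6% of those of Tubb4b, mostly with the pseudogenes Tubb4b-ps1 and Tubb4b-ps2. For Tubb5 the share was 7.11% and for Tubb6 6.08%, and neither had a shared stretch of 61 bases.

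**Figure D4:**
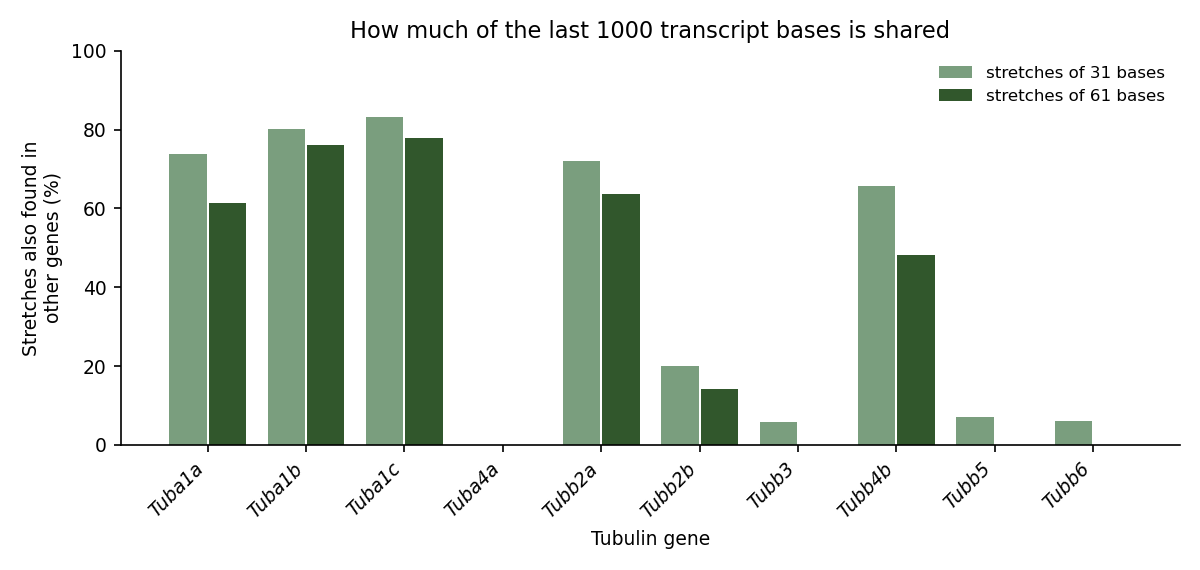
Percent of all stretches of 31 bases (light) and 61 bases (dark) in the last 1000 transcript bases of each tubulin gene that also occur in transcripts of other genes. Tuba4a had 0% at both lengths and Tubb3, Tubb5 and Tubb6 had 5.88% to 7.11% at the shorter and 0% at the longer, while the 3 Tuba1 genes had 61.5% to 83.1%.

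All 10 genes have 4 exons in the transcripts used. On GRCm38, Tuba1b lies at bases 98931425 to 98934565 and Tuba1a at 98949837 to 98953703 on the minus strand of chromosome 15, with Tuba1c at 99029891 to 99038110 on the plus strand, so the 3 near-identical alpha genes form a cluster. Tuba4a lies apart, at 75214228 to 75219865 on the minus strand of chromosome 1. Tubb2a (34074274 to 34078007) and Tubb2b (34126748 to 34130466) are neighbours on the minus strand of chromosome 13. Tubb3 lies at 123411424 to 123422015 on the plus strand of chromosome 8, Tubb4b at 25222160 to 25224702 on the minus strand of chromosome 2, Tubb5 at 35833921 to 35838306 on the minus strand of chromosome 17 and Tubb6 at 67390717 to 67402749 on the plus strand of chromosome 18. The last 1000 transcript bases are all 3′ UTR in Tuba4a and Tubb5, and hold 277 (Tubb2b) to 899 (Tuba1c) coding bases in the others.

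Other annotated genes cross 3 of the counted windows. An exon of Stk16, a kinase gene, covers all 1100 bases of the Tuba4a window on the opposite strand, and the strand setting of the counting is not given in the sources used here. Stk16 counts were 16 and 13 in shControl against 11 and 15 in shLmna, and its log2 fold change was 0.01 (edgeR adjusted p = 0.994), whereas Tuba4a had 581 to 951 counts a library. Fam166a overlaps the Tubb4b window by 198 bases on the opposite strand and had 0 to 2 counts a library. Gm49450 overlaps the Tuba1b window by 288 bases on the same strand and was not analysed here. The GC content of the last 1000 bases was 51.8% in Tuba1b, 51.5% in Tuba4a and 56.2% in Tubb3, against a median of 46.9% over the tested genes. With a GC correction their log2 fold changes were 0.54, 0.73 and -0.45, and all 3 still passed.

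The remaining tubulin genes were examined next. Of 10 listed, 4 were tested and 1 rose. Tubd1, delta tubulin of the centriole, had 20.1 and 20.9 CPM in shControl 1 and 2 and 33.6 and 32.7 CPM in shLmna 1 and 2. Each shLmna library was higher, by 0.69 on the log2 scale with an SE of 0.20 (edgeR adjusted p = 0.0448). It did not pass with DESeq2 (adjusted p = 0.308), with the GC correction (0.0537) or without any single library (0.0540 to 0.177).

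Tubg1, the gamma tubulin that nucleates microtubules, had 278 and 264 CPM in shControl and 202 and 250 CPM in shLmna, and Tubg2 had 21.1 and 21.4 CPM and 18.6 and 13.1 CPM. Levels were lower in both shLmna libraries for each gene, and neither passed the test (log2 fold changes -0.26 and -0.44, edgeR adjusted p = 0.242 and 0.266). Tube1, epsilon tubulin, had 8.05 and 4.55 CPM in shControl and 8.70 and 6.81 CPM in shLmna (edgeR adjusted p = 0.653). Tuba8 was counted 1 and 2 times in shControl and not in shLmna, Tubb4a 2 and 2 times in shControl against 1 and 0 in shLmna, and Tuba3a, Tuba3b, Tubal3 and Tubb1 had 0 counts in all libraries.

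Across 8 lists of genes that make, modify or act with tubulin, 119 genes were listed and 90 tested, of which 7 rose (7.78%), 5 fell (5.56%) and 78 did not pass the test, beside the 5.48% and 9.74% of all tested genes. Their median log2 fold change was -0.01, against -0.00107 for all tested genes. Without shLmna 1 and without shLmna 2 none of the 7 that rose passed the edgeR test (6 had an unadjusted p under 0.05 in each case), while 4 of the 5 that fell passed in each case. Over all tested genes these omissions left 119 and 89 genes higher and 436 and 414 lower, against 501 and 891 with all libraries.

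The folding machinery was described by 2 lists. None of the 7 tested tubulin folding cofactors (Tbca to Tbce, Tbcel and Arl2), which assemble the heterodimer, passed in either direction with edgeR or DESeq2, 0 had an unadjusted edgeR p under 0.05, and their median log2 fold change was -0.03. Of 15 genes of the CCT chaperonin and prefoldin, 2 rose and 1 fell, with a median of 0.09. Cct4, a chaperonin subunit, had 122 and 205 CPM in shControl 1 and 2 and 267 and 261 CPM in shLmna 1 and 2. The shLmna libraries were higher, although shControl 1 lay far below shControl 2 (log2 fold change 0.69, edgeR adjusted p = 0.0469). Without shControl 1 it was 0.37 with an edgeR adjusted p of 0.0729. Pfdn4, a prefoldin subunit, had 40.9 and 53.0 CPM in shControl and 66.8 and 78.2 CPM in shLmna (log2 fold change 0.63, edgeR adjusted p = 0.0362, DESeq2 adjusted p = 0.151).

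Vbp1, another prefoldin subunit, fell. Counts were 146 and 185 in shControl 1 and 2 and 4 and 4 in shLmna 1 and 2. Both knockdown libraries were close to no signal, and the log2 fold change was -5.15 (SE 0.31, edgeR adjusted p = 1.02e-05). Its last 1000 bases have a GC content of 31.3%, and with the GC correction the log2 fold change was -3.88 (edgeR adjusted p = 8.36e-05).

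The autoregulation list holds Ttc5, Scaper and the CCR4-NOT deadenylase that they recruit. Ttc5, which reads the nascent chain, had 5.27 and 4.28 CPM in shControl and 3.96 and 7.08 CPM in shLmna, and Scaper had 6.81 and 6.16 CPM and 4.75 and 8.45 CPM. The groups overlapped for both. These 2 genes were named after their values were seen. Of the 11 tested genes 1 rose and 1 fell, with a median log2 fold change of -0.01. Cnot6, a catalytic deadenylase subunit, was counted 232 and 282 times in shControl against 6 and 8 in shLmna. It fell with a log2 fold change of -5.0, an SE of 0.25 and an edgeR adjusted p of 6.28e-06. Its last 1000 bases have a GC content of 32.9%, and with the GC correction the value was -3.99 (edgeR adjusted p = 2.41e-05). Cnot2, a scaffold subunit, had 69.7 and 71.5 CPM in shControl and 102 and 98.1 CPM in shLmna (log2 fold change 0.50, edgeR adjusted p = 0.0289, DESeq2 adjusted p = 0.151).

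Among the enzymes that modify tubulin, 2 of 15 tested genes rose and 1 fell, with a median log2 fold change of 0.14. All 3 act on the tails shown above. Ttl, the ligase that puts the terminal tyrosine back on alpha tubulin, had 23 and 32 counts in shControl 1 and 2 and 49 and 51 in shLmna 1 and 2. Both shLmna libraries were higher, with 7.12 and 8.57 CPM against 19.4 and 13.9 CPM, and the log2 fold change was 1.06 (SE 0.29, edgeR adjusted p = 0.0364, DESeq2 adjusted p = 0.279).

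Ccdc23, listed under that older symbol of Svbp, encodes the partner that the vasohibin carboxypeptidases need to remove the same tyrosine. It had 70.0 and 70.2 CPM in shControl and 94.5 and 97.5 CPM in shLmna, with little spread within either group (log2 fold change 0.46, SE 0.13, edgeR adjusted p = 0.0437, DESeq2 adjusted p = 0.232). Tpgs1, a subunit of the polyglutamylase complex that adds glutamates to the tails, had 127 and 123 CPM in shControl and 70.8 and 77.7 CPM in shLmna. Both shLmna libraries were lower, and the log2 fold change was -0.75 (SE 0.13, edgeR adjusted p = 0.00429, DESeq2 adjusted p = 0.00589). Its last 1000 bases have a GC content of 65.2%, and with the GC correction the log2 fold change was -0.50 (edgeR adjusted p = 0.0280).

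None of the 10 tested genes of the gamma tubulin ring complex passed with edgeR or DESeq2, 1 had an unadjusted edgeR p under 0.05, and their median log2 fold change was -0.04. Of 21 proteins that stabilise microtubules or track their plus ends 1 rose and 1 fell, with a median of -0.10. Mapre1, the end-binding protein EB1, had 25.7 and 16.1 CPM in shControl 1 and 2 and 47.1 and 44.4 CPM in shLmna 1 and 2. Levels in shLmna were the higher in both libraries (log2 fold change 1.14, SE 0.24, edgeR adjusted p = 0.0106, DESeq2 adjusted p = 0.0232). Slain2, which promotes growth of plus ends, had 44.3 and 40.2 CPM in shControl and 7.91 and 8.45 CPM in shLmna, so that it fell by 2.36 on the log2 scale (edgeR adjusted p = 0.000131). Its last 1000 bases have a GC content of 29.9%, and with the GC correction it was -0.85 and no longer passed (edgeR adjusted p = 0.0794).

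Of 9 tested genes that destabilise or sever microtubules 1 fell with edgeR and 0 with DESeq2, 0 rose with either tool or at an unadjusted edgeR p under 0.05, and the median log2 fold change was -0.12. Fignl1, a member of the fidgetin family of ATPases, had 85 and 141 counts in shControl 1 and 2 and 1 and 27 in shLmna 1 and 2. In shLmna both were lower but far apart, and the log2 fold change of -2.87 (edgeR adjusted p = 0.00743) became -6.19 without shLmna 2 and -2.12 without shLmna 1. It did not pass with DESeq2 (adjusted p = 0.286).

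**Figure D5:**
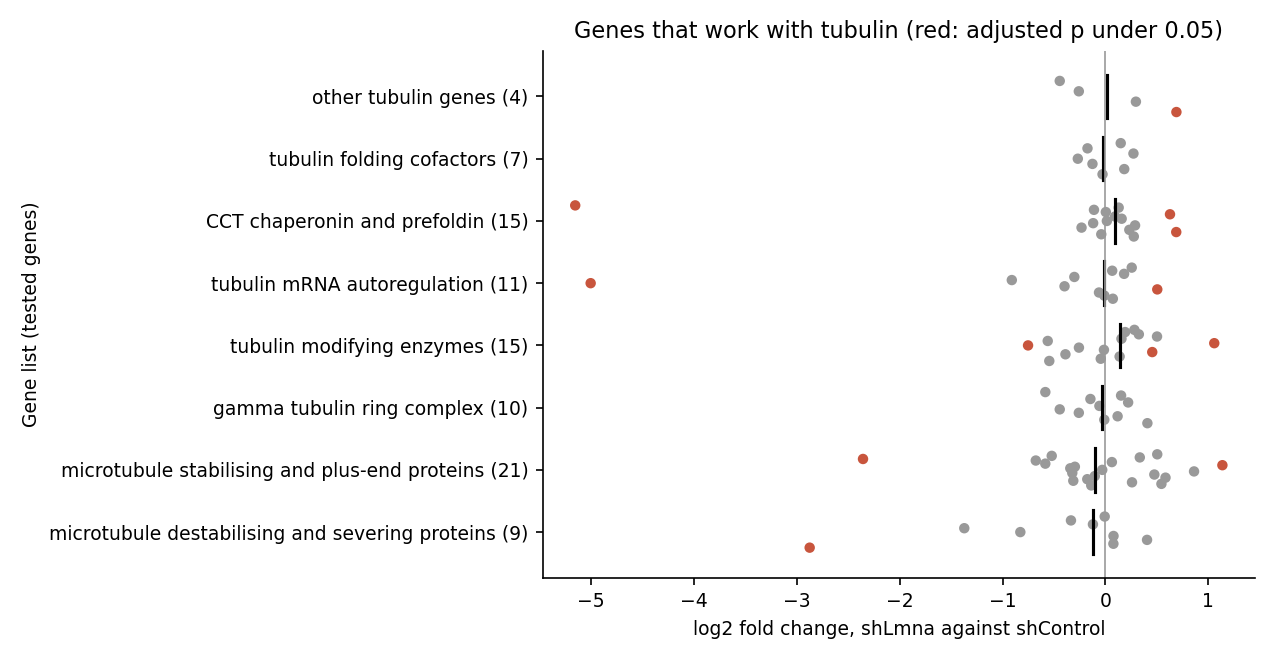
Log2 fold change, shLmna against shControl, of each tested gene in 8 lists of genes that work with tubulin, with the number tested in brackets, a black line at each list's median and red points for an adjusted p under 0.05. Most points lay near 0, medians ran from -0.12 to 0.14, and Vbp1 (-5.15) and Cnot6 (-5.0) stood far to the left.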

How the data were processed

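Per the labels and the study's methods, the authors trimmed MARS-seq reads with cutadapt, aligned them to mm10 with STAR 2.4.2a and had HTSeq count them over each RefSeq gene's last 1000 bases and 100 bases downstream. The deposited matrix of raw counts per gene symbol was the input of the tests. Whether it preceded the collapse of molecular identifiers is not stated. The deposited signal values are counts divided by a DESeq2 size factor. Whole counts were recovered for 100% of them (within 0.1) and the matrix exceeded these by a factor of 1.08 to 1.09. A further deposited table held log2 values that the authors corrected for unnamed batches with ComBat. P-values and adjusted p-values deposited by the authors for their own comparison were not used. Neither were their fold or ratio columns.

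Groups and replicate numbers came from the sample titles, and the labels name no batch. The 9150 genes kept by filterByExpr were tested with the two-sided quasi-likelihood test of edgeR 4.0.16 (R 4.3.3, TMM, group as the one term) with Benjamini-Hochberg adjustment, and the script was checked on simulated counts. SE and 95% intervals came from the F statistic. CPM are TMM-scaled. The tubulin genes, lists and tests were chosen with earlier results of these data known. Named were Lmna, the 10 tubulin genes, other tubulin genes with a count, up to 4 genes of each list with the smallest p among those passing, and genes whose window overlaps that of a tubulin gene. Alternatives were RLE scaling, DESeq2 1.42.0, no filter, a replicate block, limma 3.58.1 on the log2 values, recovered counts, a spline correction for GC content (5 degrees of freedom, 8808 genes) and leaving out each library.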

Additional observations from a re-analysis of the deposited data

How the results depend on the processing

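Tuba1b, Tuba4a and Tubb3 kept their direction in 11 of 11 other settings and passed the test in the 7 that kept all libraries. Tuba1c, Tubb2a, Tubb4b and Tubb5, which did not pass in the reported fit, also kept their direction in 11 of 11. The 7 settings refit the same 4 libraries, so passing them is no independent evidence. The count of tubulin genes higher in shLmna, 2 in the reported fit, was 4 with the replicate block, 4 with limma on the batch-corrected values and 1 to 3 when a library was left out, and that of lower genes, 1 in the reported fit, was 0 to 1 when a library was left out. Same-numbered libraries share only a number (correlation of their deviations 0.013). The replicate block raised the calls over all genes from 501 to 852 higher and from 891 to 1220 lower. Of the list genes, 2 were higher with DESeq2, 16 with limma and 0 to 10 when a library was left out, against 7 in the reported fit. Lower were 13 with limma and 4 to 10 when a library was left out, against 5. The log2 fold change of Tubb6 changed sign with limma (0.0017), recovered counts (0.0202) and the GC correction (0.0326) and ranged from -0.1043 to 0.0997 when a library was left out. That of Tuba1a ranged from -0.008 to 0.3403 and that of Tube1 from -0.0776 to 0.7465 when a library was left out. With the GC correction that of Tube1 was 0.8442 and that of Tubg1 -0.1438, against 0.2966 and -0.2583 in the reported fit. Over all genes DESeq2 called 218 higher and 589 lower, and the split was 800 to 731 with the GC correction, 1784 to 1992 with limma and 750 to 1292 without the filter. The cause of these shifts was not tested. A group left with 1 library was assumed to vary like the other group.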

Other observations

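Within the listed genes below the filter, Dpysl2 (CRMP2, a tubulin-binding protein) was counted 9 and 22 times in shControl against 0 and 2 in shLmna. Its shControl mean was 4.33 times a floor of 3 counts a library, a ratio that leaves out counting error. It did not pass with DESeq2 (adjusted p = 0.135). Stmn4, a stathmin family member, was counted 0 and 2 times in shControl against 5 and 7 in shLmna. Its shLmna mean was 2.24 times the same floor, and it did not pass with DESeq2 (adjusted p = 0.552). Both were chosen after their values were seen. For Tuba1b the matrix held 1.12 and 1.12 times the recovered counts in shControl 1 and 2 and 1.16 and 1.19 times in shLmna 1 and 2, whereas for Tuba4a it was 1.06 to 1.07 in all 4 libraries. The factor was also higher in both shLmna libraries for Tubb5 (1.11 and 1.11 against 1.13 and 1.14) and Tubb2a (1.06 and 1.07 against 1.10 and 1.09). It was lower in both for Tubb3 and Tubb4b. With the recovered counts the log2 fold change of Tuba1b was 0.47 and that of Tuba4a 0.73. That of Tubb5 was 0.27, against 0.29 in the reported fit.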
